A study of Monascus purpureus with 9 samples.

Results

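The genes described here are 189 genes of the filamentous fungus Monascus purpureus whose transcripts stood at least 4-fold higher in both a Swd3 knockout and a Set1 knockout than in the wild type (WT), without reaching the highest levels and without lying in a long row of genes that were higher together. RNA-seq was made from total RNA of mycelium grown for 2 days in PDB medium, with 3 libraries each of the Swd3 knockout, the Set1 knockout and WT. The labels give the genotypes only. They name no parent strain, no number of independent transformants and no separate cultures, so each knockout may be 1 strain, and the spread between libraries may be technical. The data are FPKM values (fragments per kilobase of transcript scaled to the library's mapped fragments), and the sum of FPKM over all rows ranged from 705678 to 729434 per library. Sequencing depth is unknown. In bulk mycelium, fewer cells that express a gene and less RNA per cell cannot be told apart.

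Set1 is the catalytic subunit of COMPASS, which places methyl groups on histone H3 at a lysine near the start of transcribed genes, and Swd3 is a WD-repeat subunit of its core. In budding yeast, where the complex was first purified, Set1 is needed for silencing near telomeres as well as for the methylation found at active genes. In Aspergillus nidulans, loss of another COMPASS component is known to switch on secondary metabolite genes that are otherwise silent. Monascus purpureus is itself grown for a group of secondary metabolites, its azaphilone pigments.

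The members were chosen by their values, from the mean FPKM of each group. The quantity d is the log2 ratio of Swd3 knockout to WT and s that of Set1 knockout to WT, both after adding 1 FPKM to each mean. A member has d and s of at least 2, a lower knockout mean under 100 FPKM, a WT mean of at least 0.1 FPKM and a difference between d and s under 0.585, which is 1.5-fold. It also lies in no run of 5 or more consecutive gene numbers with d and s of at least 1. Of 8918 rows named gene_ with a number (9869 rows in all), 315 had d and s of at least 2, and 189 of these met every criterion. Of the others, the run criterion alone removed 52, the upper level 24, the WT minimum 21 and the difference between knockouts 6. The rest failed more than 1 criterion. All comparisons between the groups below therefore describe the choice and are no test of it.

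The table gives IDs without names, positions or lengths, and 0 of its rows matched the 9270 entries of the reference gene list used (assembly ASM2599979v1). What the members encode was not analysed here, no sequence is shown for them, and they are called by their IDs.

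The members were scarce transcripts in WT and of middling level in both knockouts. Their median level over the 189 genes was 13.9 FPKM in the Swd3 knockout (range 3.72 to 98.6), 13.5 FPKM in the Set1 knockout (3.84 to 99.8) and 1.21 FPKM in WT (0.103 to 19.2). Among the 8918 gene_ rows ranked by mean FPKM, the median member stood at percentile 46.6 in the Swd3 knockout, 46.6 in the Set1 knockout and 11.6 in WT. In the lowest 25% of the ranking were 26 members in the Swd3 knockout, 22 in the Set1 knockout and 160 in WT. In the highest 25% were 31, 31 and 0 members in the same 3 groups. The word modest thus holds for most members in the knockouts, but the highest of them reached percentile 88.7 in the Swd3 and 88.6 in the Set1 knockout.

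**Figure D1:**
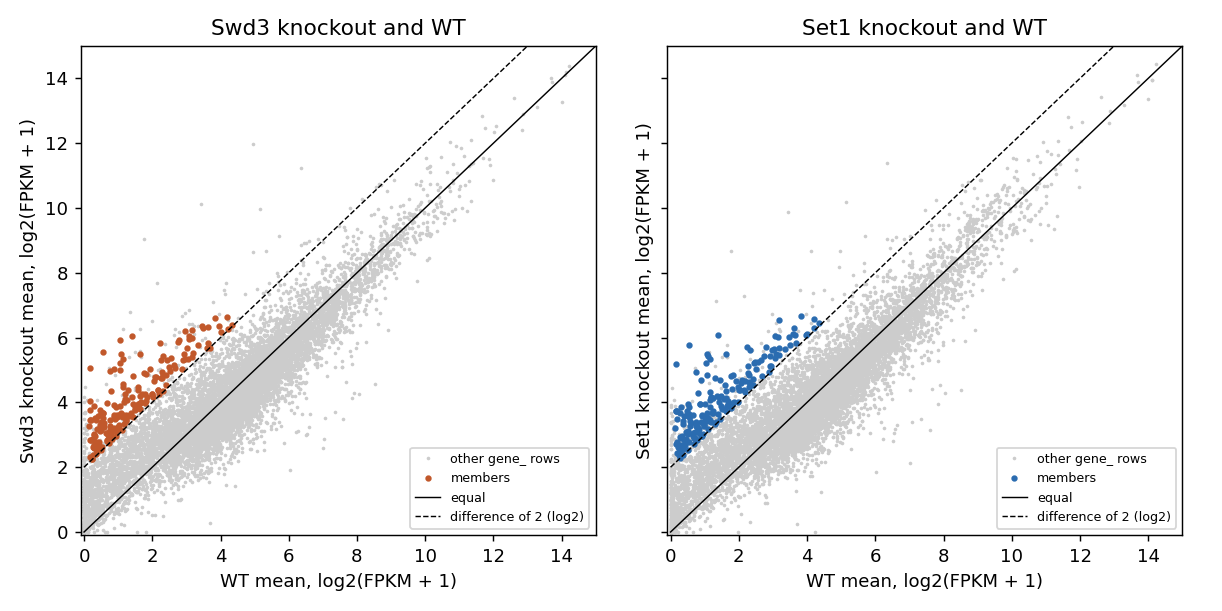
Mean level in the Swd3 knockout (left) and the Set1 knockout (right) on the y axis against the WT mean on the x axis, all as log2(FPKM + 1), for the 189 members (coloured) and the other gene_ rows (grey). The solid line marks equal levels and the dashed line a difference of 2, and members lie above the dashed line at WT means of 0.103 to 19.2 FPKM.

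The shift was alike in all libraries of a group. The members' FPKM summed to 4383, 4266 and 4195 in the Swd3 knockout libraries, to 4202, 4102 and 4169 in the Set1 knockout libraries, and to 507, 499 and 503 in the WT libraries. Every knockout library thus lay far above every WT library. As a share of the summed FPKM of all rows, the members took 0.603 ± 0.0136% in the Swd3 knockout, 0.572 ± 0.0097% in the Set1 knockout and 0.0709 ± 0.0011% in WT (SD, n = 3). The mean sum was 8.51 times the WT value in the Swd3 knockout and 8.26 times in the Set1 knockout. All 189 members were at 1 FPKM or more in each of the 6 knockout libraries, against 108, 107 and 104 members in WT libraries 1, 2 and 3. At 10 FPKM or more were 133, 123 and 123 members in the Swd3 knockout libraries, 128, 121 and 127 in the Set1 knockout libraries, and 11, 12 and 11 in the WT libraries.

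**Figure D2:**
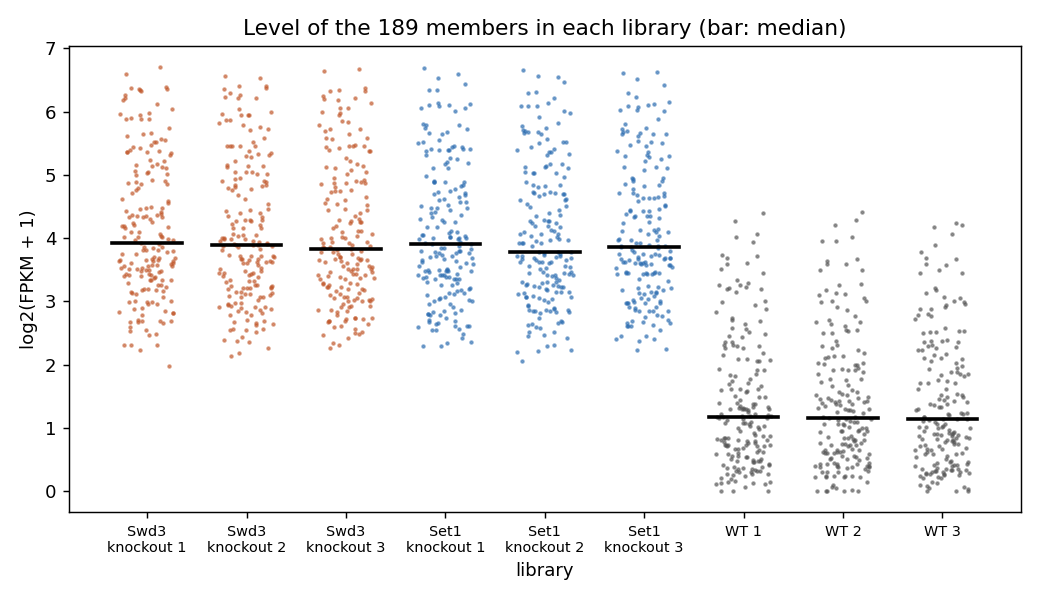
Level of each of the 189 members as log2(FPKM + 1) on the y axis in each of the 9 libraries on the x axis, with a bar at the median. The medians lie between 12.8 and 14.1 FPKM in the 6 knockout libraries and between 1.19 and 1.26 FPKM in the 3 WT libraries.

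In every member, each of the 6 knockout libraries was above each of the 3 WT libraries, a pattern found in 34.8% of the 9153 rows that entered the model. The closest approach was in gene_3516, whose lowest knockout library was still 3.58 times its highest WT library. In the limma model over all rows, 189 of 189 members were called higher in the Swd3 knockout (38.2% of all rows tested were) and 189 of 189 in the Set1 knockout (37.8% were). Both counts follow from the choice of members.

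The members' log2 differences had medians of 2.55 for d and 2.51 for s, against -0.06 and -0.07 over all gene_ rows. At least 8-fold higher in both knockouts on this scale were 35 members, at least 16-fold 8 members and at least 32-fold 1 member. The added 1 FPKM holds back the ratio of genes that are scarce in WT. The plain ratio of means was 10.4 in the Swd3 knockout and 10.2 in the Set1 knockout for the median member, with smallest values of 4.26 and 4.41. In 50 members with a WT mean under 0.5 FPKM the median ratio was 25.6 in the Swd3 and 24.7 in the Set1 knockout, at knockout levels of only 7.45 and 6.98 FPKM. In 30 members with a WT mean of 5 FPKM or more it was 5.93 and 5.84, at 58.2 FPKM in the Swd3 knockout and at 52.5 FPKM in the Set1 knockout. The criterion of 4-fold with 1 FPKM added asks for a larger plain ratio at low WT levels, so part of this order is set by the rule.

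With 1 FPKM added, the largest mean of d and s was that of gene_7673, at 5.11, followed by gene_4871 at 4.95. The order of these genes turns with the scale, since gene_4871 led with 0.5 FPKM added (5.78 against 5.69 in gene_7673), with 0.1 (7.23 against 6.46), under quantile normalization (4.67 against 4.62) and in the plain ratios below. Gene_7673 stood at 47.8, 43.1 and 46.8 FPKM in the Swd3 knockout libraries, at 54.1, 50.7 and 54.7 FPKM in the Set1 knockout libraries, and at 0.707, 0.531 and 0.153 FPKM in the WT libraries. Its plain ratio to WT was 98.9 in the Swd3 and 115 in the Set1 knockout, with d = 5.0 and s = 5.21. The gene thus moved to percentile 77.1 of gene_ rows in the Swd3 and 80.2 in the Set1 knockout, against 6.88 in WT.

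Gene_4871 stood at 31.9, 34.4 and 31.1 FPKM in the Swd3 knockout, 36.0, 34.1 and 36.3 FPKM in the Set1 knockout, and 0.179, 0 and 0.202 FPKM in WT. With 1 WT library listed at 0, its ratio to WT (256 in the Swd3 and 279 in the Set1 knockout) has a small and uncertain denominator. Gene_6242 stood at 64.7, 62.8 and 69.2 FPKM in the Swd3 knockout, 68.3, 62.1 and 70.0 FPKM in the Set1 knockout, and 1.47, 1.82 and 1.65 FPKM in WT. Its knockout libraries overlapped, and the ratio to WT was 39.9 in the Swd3 and 40.6 in the Set1 knockout. Gene_2774 had 57.9, 60.6 and 61.8 FPKM in the Swd3 knockout, 41.1, 44.2 and 45.4 FPKM in the Set1 knockout, and 0.999, 1.38 and 0.873 FPKM in WT. Unlike in gene_6242, all its Swd3 knockout libraries were above all its Set1 knockout libraries.

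Ordered by the lower of their knockout means, the 4 highest members (gene_309, gene_305, gene_8719 and gene_3837) were already present in WT. Gene_309 had 95.6, 93.5 and 99.1 FPKM in the Swd3 knockout, 102, 99.95 and 97.0 FPKM in the Set1 knockout, and 12.3, 14.5 and 12.7 FPKM in WT. Gene_305, only 4 numbers away, had 103, 91.5 and 101 FPKM in the Swd3 knockout, 95.2, 92.0 and 97.6 FPKM in the Set1 knockout, and 15.7, 18.4 and 17.9 FPKM in WT. The only direct neighbour of either that has a row, gene_304, was at 43.5 ± 1.51 FPKM in the Swd3 knockout, 40.1 ± 1.90 in the Set1 knockout and 58.9 ± 1.25 in WT (SD, n = 3). Gene_8719 had the highest WT mean of all members, with 82.4, 83.3 and 82.2 FPKM in the Swd3 knockout, 85.6, 87.5 and 84.3 FPKM in the Set1 knockout, and 19.97, 20.2 and 17.4 FPKM in WT. Its ratios of 4.30 in the Swd3 and 4.47 in the Set1 knockout were among the smallest. The fourth was gene_3837, at 79.6 ± 2.22 FPKM in the Swd3 knockout, 78.4 ± 1.78 in the Set1 knockout and 11.3 ± 0.511 in WT, and the member with the second highest WT mean was gene_6018, at 75.2 ± 5.18, 77.6 ± 2.85 and 17.6 ± 0.648 FPKM in the same 3 groups (SD, n = 3). In a single knockout other members stood higher than gene_3837 and gene_6018, such as gene_9294 in the Set1 knockout and gene_4609 in the Swd3 knockout.

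The members scarcest in WT reached lower levels in the knockouts. Gene_856 had 10.5, 7.82 and 7.99 FPKM in the Swd3 knockout, 9.21, 8.51 and 6.92 FPKM in the Set1 knockout, and 0, 0.0694 and 0.240 FPKM in WT. Gene_9207 had 12.4, 13.8 and 11.7 FPKM in the Swd3 knockout, 12.7, 11.8 and 12.7 FPKM in the Set1 knockout, and 0.198, 0.0502 and 0.106 FPKM in WT. Gene_7149 had 17.2, 14.99 and 14.1 FPKM in the Swd3 knockout, 11.6, 11.8 and 13.7 FPKM in the Set1 knockout, and 0, 0.299 and 0.0716 FPKM in WT. In each of these genes the WT values, which lie near 0, differed several-fold among themselves, while the knockout values lay close together. Of the 189 members, 10 were listed at 0 in at least 1 WT library, 1 of them in 2, and 0 in any knockout library. A value of exactly 0 may stand for an estimate that failed. Among all members, 70 stayed under 1 FPKM in all WT libraries.

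**Figure D3:**
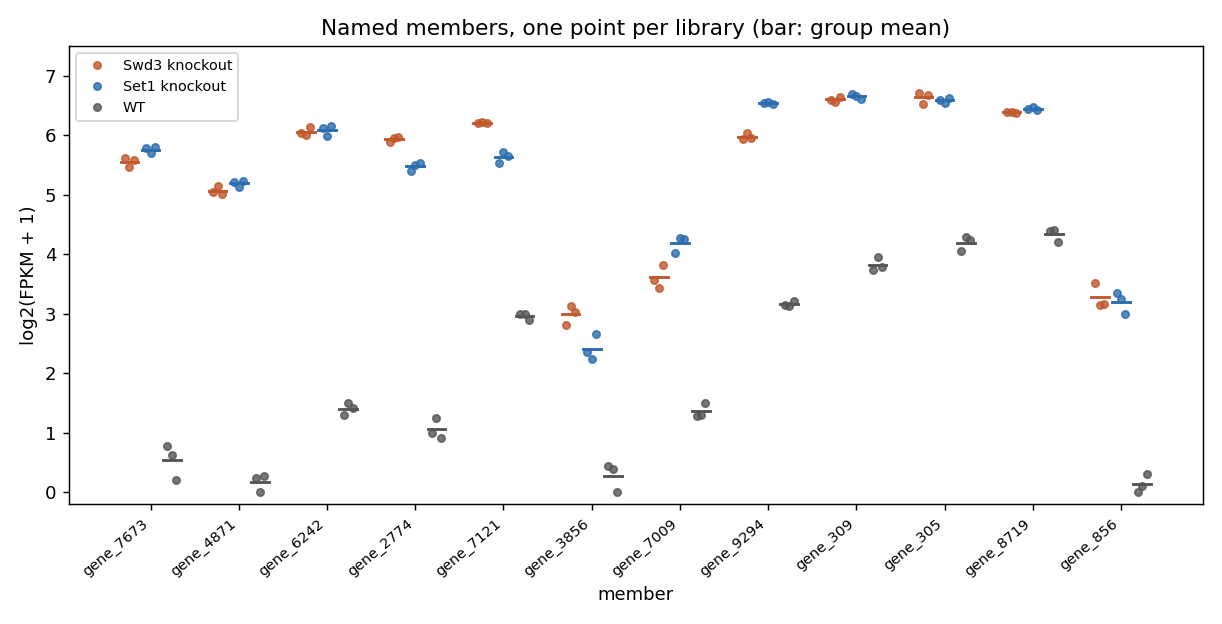
Level as log2(FPKM + 1) on the y axis of 12 members on the x axis, with 1 point per library and a bar at the group mean. In each gene the 6 knockout points lie above the 3 WT points, and in gene_7673, gene_2774, gene_7121, gene_3856, gene_7009, gene_9294 and gene_8719 the points of both knockouts do not overlap.

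The spread between libraries was not used by the rule. On the log2(FPKM + 1) scale the members' median SD was 0.11 in the Swd3 knockout, 0.09 in the Set1 knockout and 0.14 in WT (n = 3 each). Other gene_ rows that entered the model and lay in the same range of levels (the central 90% of the members' levels in that group) had medians of 0.11, 0.08 and 0.14 in the same order. Relative to the mean, the median coefficient of variation of the members was 7.84% in the Swd3 knockout, 6.97% in the Set1 knockout and 20.6% in WT, against 7.95%, 6.31% and 12.9% for those other rows. In WT the relative spread of the members was thus above that of the other rows, while the SDs on the log2 scale were alike. Rows entered the model with at least 1 FPKM in at least 3 libraries, so the 70 members under 1 FPKM in all WT libraries entered through the knockouts alone. The WT comparison is shaped by that filter, and levels within the same range need not have the same median.

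The most even member was gene_3025, at 49.6, 51.0 and 48.9 FPKM in the Swd3 knockout, 67.9, 69.1 and 67.6 FPKM in the Set1 knockout, and 11.2, 11.05 and 10.95 FPKM in WT. Gene_4609 was similarly even, at 80.8 ± 1.37 FPKM in the Swd3 knockout, 64.3 ± 1.11 in the Set1 knockout and 9.999 ± 0.202 in WT, as was gene_5117, at 41.6 ± 1.04, 50.2 ± 0.452 and 8.004 ± 0.194 FPKM in the same order (SD, n = 3). The least even was gene_7903, at 3.98, 5.14 and 4.67 FPKM in the Swd3 knockout, 5.43, 6.44 and 4.27 FPKM in the Set1 knockout, and 0.0938, 0.0134 and 0.830 FPKM in WT. Gene_1139, listed at 0 in WT library 2, and gene_2769 came next. Swd3 knockout library 1 was the highest of its group in 101 members (53.4%, against 61.2% of all tested gene_ rows) and Set1 knockout library 1 in 82 members (43.4%, against 52.3%). The tendency of those libraries to be highest was therefore shared with the other genes.

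The rule can also be run on part of the libraries and read in those left out, a description added after the values were seen. The rule itself was set with all 9 libraries known, and libraries of a group may be technical replicates. The shares below therefore describe how alike the libraries of a group were and lend the choice of members no support. Without the 3 libraries numbered 1, the rule chose 186 genes, 174 of them members. In the libraries left out, 159 of these 186 (85.5%) were at least 4-fold higher in both knockouts and 186 at least 2-fold. Without the libraries numbered 2 it chose 178 genes, of which 149 (83.7%) were at least 4-fold and 177 at least 2-fold higher in the libraries left out. Without those numbered 3 it chose 182 genes, of which 150 (82.4%) were at least 4-fold and 182 at least 2-fold higher. Over all 9 libraries, 315 of the 8918 gene_ rows were at least 4-fold and 13.3% at least 2-fold higher in both knockouts. The medians in the libraries left out were 2.66, 2.56 and 2.47 for d and 2.54, 2.48 and 2.52 for s, against 2.52, 2.54 and 2.55 and against 2.53, 2.51 and 2.50 where the genes were chosen. With 1 library per group left out there is no test, and the lowest values there were 1.61, 0.88 and 1.44 for d and 1.43, 0.80 and 1.44 for s.

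The knockouts are alike in these genes partly by the rule, which bounds the difference between d and s but not its sign. The difference d minus s had a median of 0.03 over the members and of 0.02 over all gene_ rows. In 112 members d was above s and in 77 below it, and in 133 members both lay within 0.2 of each other. That balance moved with the scaling, to 120 members with d above s (63.5%) with a common total, 100 (52.9%) with median of ratios and 92 (48.7%) under quantile normalization. Leaving out Swd3 knockout library 1 left 98 (51.9%). In the limma model 12 members (6.35%) were called higher and 7 (3.70%) lower in the Swd3 than in the Set1 knockout, where 6.66% and 6.15% of all rows were. With Set1 knockout library 3 left out, 4 members were called lower, as were 372 of all rows. All Swd3 knockout libraries lay above all Set1 knockout libraries in 31 members (16.4%, against 15.8% of all rows) and below them in 26 (13.8%, against 12.4%). Both shares were thus near those of all rows.

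The member farthest towards Swd3 was gene_7121. Its libraries held 73.0, 74.0 and 72.5 FPKM in the Swd3 knockout, 45.0, 51.5 and 48.9 FPKM in the Set1 knockout, and 6.96, 6.99 and 6.39 FPKM in WT. The ratio of Swd3 to Set1 knockout was 1.51. The next number, gene_7122, is no member because its level is too high and its knockouts differ too much, at 4047 ± 99.5 FPKM in the Swd3 knockout, 291 ± 10.2 in the Set1 knockout and 29.7 ± 1.07 in WT. In the direct comparison both genes were thus higher in the Swd3 knockout, by very different ratios.

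Gene_3856 had 6.01, 7.73 and 7.17 FPKM in the Swd3 knockout, 4.11, 3.69 and 5.29 FPKM in the Set1 knockout, and 0.352, 0.303 and 0 FPKM in WT. Its neighbour gene_3857, also a member, was nearly equal in both, at 10.6 ± 1.27 FPKM in the Swd3 knockout, 9.70 ± 1.25 in the Set1 knockout and 1.195 ± 0.0996 in WT. Gene_233 stood at 77.3 ± 3.45 FPKM in the Swd3 knockout, 53.4 ± 1.55 in the Set1 knockout and 10.2 ± 0.267 in WT, and the neighbour below it, gene_232, leaned the other way, at 463 ± 24.5, 523 ± 41.4 and 80.8 ± 7.28 FPKM in the same order (SD, n = 3 each).

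Towards Set1, gene_7009 had 10.9, 9.81 and 13.2 FPKM in the Swd3 knockout, 15.2, 18.2 and 18.1 FPKM in the Set1 knockout, and 1.43, 1.44 and 1.82 FPKM in WT. Gene_9294 had 60.5, 64.8 and 60.6 FPKM in the Swd3 knockout, 91.8, 93.1 and 90.6 FPKM in the Set1 knockout, and 7.89, 7.75 and 8.26 FPKM in WT. The Swd3 level was 0.657 of the Set1 level in gene_7009 and 0.675 in gene_9294. Gene_3025, the most even member, followed with 0.731.

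The members were spread over the whole range of gene numbers, from 28 to 10002 in a table that runs from 2 to 10020. In successive blocks of 1000 numbers up to 10000 they made up 1.57% to 2.90% of the gene_ rows. The widest stretch without one lay between gene_1643 and gene_1960. Gene numbers of the table were read as an order only, and the table does not say that neighbours in number are neighbours on a chromosome.

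The genes next to the members were themselves often higher in both knockouts. Some numbers have no row, and 144 of the 189 members have a row on both sides. Of 330 neighbours 1 number away, counted once for each member they flank, 141 (42.7%) had d and s of at least 1, which is at least 2-fold with 1 FPKM added. The same held for 13.0% of the neighbours of all gene_ rows, and for 13.3% of the gene_ rows themselves. At least 2-fold lower in both knockouts were 9 of the 330 (2.73%), against 8.02% of gene_ rows. The share of higher neighbours was 30.3% at a distance of 2 numbers, 23.2% at 3 and 22.8% at 4. From 5 to 10 numbers it varied without a steady decline between 14.8% (at 9) and 23.7% (at 7), and from 11 to 20 between 12.8% (at 19) and 17.4% (at 15), while the share for all gene_ rows was 13.0% to 13.4% at every distance up to 20. These shares are a description of these genes and of their numbering, with no test. The rule lowers them, because it removed the genes that lie in runs of 5 or more.

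**Figure D4:**
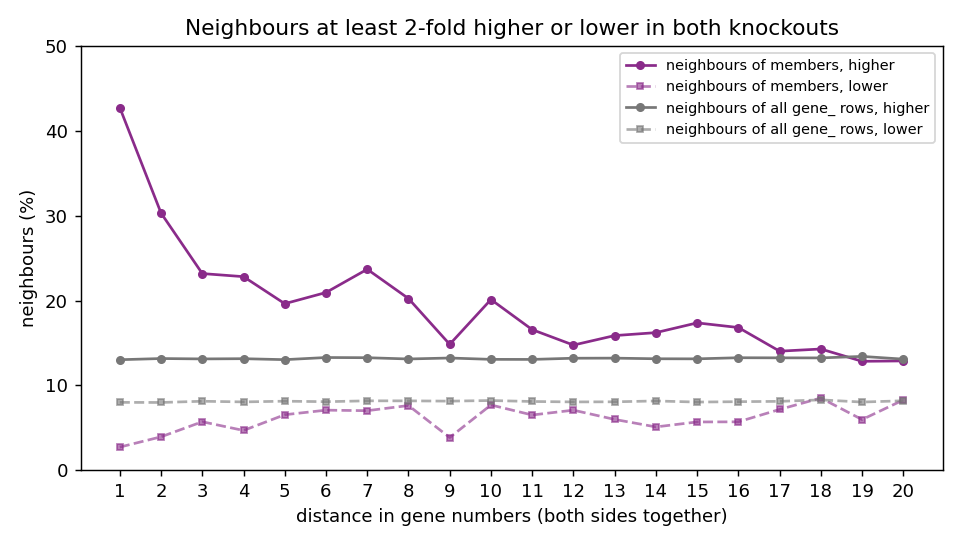
Share of neighbours (y axis, percent) at least 2-fold higher (solid) or lower (dashed) in both knockouts, by distance in gene numbers on both sides (x axis), for the 189 members and for all gene_ rows. The solid line of the members starts at 42.7%, declines unevenly, stays above that of all gene_ rows up to a distance of 18 and lies just below it at 19 (12.8% against 13.4%) and 20 (12.9% against 13.1%).

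Neighbours were of lower level than gene_ rows as a whole, at a median of 8.59 against 16.7 FPKM over the 9 libraries, and scarce genes were more often higher in the knockouts. Of the 321 distinct neighbours 60 are members themselves, which are higher by the rule. Without members on either side of the comparison, 77 of 261 neighbours were at least 2-fold higher (29.5%), against 11.4% of the gene_ rows, and 9 were at least 2-fold lower. Of these neighbours, those that averaged less than 5 FPKM across all libraries were higher in 37.6% (35 of 93), against 21.7% of the gene_ rows of that level. At 5 to 20 FPKM the share was 29.1% (25 of 86), against 10.9%, and at 20 to 100 FPKM it was 15.4% (10 of 65), against 6.78%. At 100 FPKM and over, 7 of only 17 neighbours were higher (41.2%), against 8.71%.

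In short runs of at most 4 consecutive numbers with d and s of at least 1, 75 members stood alone, 52 lay in runs of 2, 38 in runs of 3 and 24 in runs of 4. A member was the direct neighbour of another in 60 cases, as 27 pairs and 2 triples. In gene_2767, gene_2768 and gene_2769, the triple of lower numbers, the mean levels were 22.4 ± 0.565, 15.1 ± 1.70 and 11.2 ± 1.49 FPKM in the Swd3 knockout. They were 22.2 ± 0.546, 15.3 ± 1.11 and 12.3 ± 2.77 FPKM in the Set1 knockout, and 4.30 ± 0.670, 2.20 ± 0.143 and 1.35 ± 0.514 FPKM in WT (SD, n = 3). In all 3 groups the mean levels were lower with each number, while d rose slightly, at 2.14, 2.32 and 2.38, as did s, at 2.13, 2.35 and 2.50. The plain ratios to WT rose more, at 5.21, 6.83 and 8.33 in the Swd3 and 5.15, 6.96 and 9.13 in the Set1 knockout.

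In the other triple, gene_4705, gene_4706 and gene_4707, the means were 9.03 ± 0.765, 14.4 ± 0.789 and 15.7 ± 1.32 FPKM in the Swd3 knockout. They were 9.58 ± 0.640, 16.8 ± 1.03 and 16.5 ± 2.05 FPKM in the Set1 knockout, and 1.25 ± 0.1999, 2.08 ± 0.769 and 1.39 ± 0.149 FPKM in WT (SD, n = 3). Gene_4708 follows them at 1.93 ± 0.210 FPKM in the Swd3 knockout, 2.30 ± 0.577 in the Set1 knockout and 0.235 ± 0.130 in WT, and closes a run of 4.

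The 4 members with the largest mean of d and s at 1 FPKM added (gene_7673, gene_4871, gene_6242 and gene_2774) each lay in a run of 2 to 4 such genes. With 0.1 FPKM added, gene_7149 (5.96), which stands alone, and gene_9207 (5.86) were above gene_2774 (5.44) and gene_6242 (5.25). Gene_4871 lies in a run of 4 whose first gene, gene_4869, had plain ratios to WT of only 2.50 in the Swd3 and 2.18 in the Set1 knockout, at 23.3 ± 0.530 FPKM in the Swd3 knockout, 20.3 ± 0.933 in the Set1 knockout and 9.32 ± 0.707 in WT. Between them, the member gene_4870 stood at 18.2 ± 2.27, 17.0 ± 0.935 and 1.28 ± 0.474 FPKM in the same order. The fourth, gene_4872, was at 6.41 ± 0.527 FPKM in the Swd3 knockout and 6.84 ± 0.907 in the Set1 knockout, and listed at 0.0690, 0 and 0 FPKM in WT, under the minimum for a member.

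Gene_6242 and the member gene_6243 were followed by gene_6244, which missed the rule only because d and s differed by 0.62. It had 14.8 ± 1.504 FPKM in the Swd3 knockout, 23.3 ± 1.85 in the Set1 knockout and 1.196 ± 0.355 in WT. Gene_7673 was preceded by gene_7672, at 2.75 ± 0.158 FPKM in the Swd3 knockout, 2.73 ± 0.489 in the Set1 knockout and listed at 0 in all WT libraries. Gene_2774 was followed by gene_2775, at 206 ± 10.5 FPKM in the Swd3 knockout, 154 ± 8.63 in the Set1 knockout and 3.41 ± 0.359 in WT. Both were higher in the Swd3 than in the Set1 knockout, by ratios of 1.38 in gene_2774 and 1.34 in gene_2775. Gene_6018, one of the members most present in WT, follows gene_6017, which stood at 2428 ± 17.8 FPKM in the Swd3 knockout, 2660 ± 43.6 in the Set1 knockout and 80.5 ± 5.47 in WT (SD, n = 3).

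Not every neighbour went the same way. Gene_7149, among the members scarcest in WT, is followed by gene_7150, at 3.54 ± 0.753 FPKM in the Swd3 knockout, 3.49 ± 0.503 in the Set1 knockout and 22.01 ± 1.83 in WT. Gene_3837 is preceded by gene_3836, at 7.18 ± 0.620 FPKM in the Swd3 knockout, 6.85 ± 0.768 in the Set1 knockout and 31.6 ± 1.38 in WT, and gene_9294 is followed by gene_9295, at 2.47 ± 0.374, 3.08 ± 0.273 and 9.49 ± 1.86 FPKM in the same order. The number after the member gene_8281 is gene_8282, at 7.96 ± 1.73 FPKM in the Swd3 knockout, 0 in each library of the Set1 knockout and 17.7 ± 2.32 FPKM in WT (SD, n = 3). What gene_8282 encodes is not known, and what its values of exactly 0 stand for was not tested, so they need not be a fall in transcription. These neighbours were picked after their values were seen.

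Whether adjacent members leaned to the same knockout was counted as well. In 19 of 31 adjacent member pairs (61.3%) d minus s had the same sign, against 54.0% of 7989 adjacent pairs of all gene_ rows, which is a small excess in few pairs. Between a member and a neighbour that is no member, the sign was the same in 142 of 268 pairs (53.0%), which is no excess.

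The values nearest each limit, inside and outside, lay close together in the limited quantity, though not in the genes' other values. Nearest to the limit for d was gene_6196 inside (d = 2.0009) and gene_1024 outside (1.9933), and for s gene_1163 inside (2.007) and gene_7454 outside (1.9975). The highest lower knockout mean inside was 96.1 FPKM in gene_309, and the nearest outside was 105 FPKM in gene_483. For the WT minimum, gene_856 lay inside at 0.103 FPKM and gene_9206, the neighbour of the member gene_9207, outside at 0.0991 FPKM.

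Set beside the members, the 24 genes that met the rule except for a higher level had a median of 430 FPKM in the Swd3 knockout, 404 in the Set1 knockout and 45.8 in WT. Their medians of d and s, at 2.57 and 2.66, were close to those of the members, but both sets were cut at d and s of at least 2. The upper quartiles lay farther apart, at 3.70 for d and 3.71 for s in the 24 genes, against 2.90 and 2.88 in the members. The added 1 FPKM lowers d and s more in the members, whose WT median was 1.21 FPKM, than in the 24 genes. The members' plain ratios to WT had upper quartiles of 20.7 in the Swd3 and 19.1 in the Set1 knockout. Plain ratios of the 24 genes were not computed, so the order of both sets holds only with 1 FPKM added. Of the direct neighbours of the 24 genes, 10 of 40 (25%) were at least 2-fold higher in both knockouts. The 52 genes left out for lying in a long run were closer to the members in level, at 19.6 FPKM in the Swd3 knockout, 15.7 in the Set1 knockout and 1.64 in WT. They leaned more to the Swd3 knockout, with a median d minus s of 0.16 against 0.03 in the members, a difference that was not tested.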

How the data were processed

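The tools named in the submitters' processing notes are FastQC, HISAT2 and StringTie. Tool versions, genome build, annotation and use of strand: not given in the sources used here. A single table of FPKM values was deposited by the authors, and each column was matched to a library by its title. Low values showed no steps of whole reads (the fullest of 31 bins of the ratio between WT libraries 1 and 2 held 8.57% of 70 genes under 0.15 FPKM), so no count test was run and no interval or floor from counting was given, and depth and its precision are unknown.

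The members and all descriptions were chosen with earlier results of these data known. Group means of FPKM gave the members (Python 3.11.15, pandas 2.3.3). Rows with at least 1 FPKM in at least 3 of the 9 libraries (9153, with all 189 members) entered 1 limma model (limma 3.58.1, R 4.3.3) on log2(FPKM + 1) with a mean per group and an intensity trend. P-values were two-sided, adjusted by Benjamini-Hochberg over all rows, with a threshold of 0.05, and no scaling was added. The code of the fit was run on simulated data with independent noise and changes in the Set1 knockout alone. That run checks the code and lends the calls given here no support.

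Members with values in the text were the extremes of mean log2 difference, level, WT level, difference between knockouts and spread, those nearest each limit, and the longest runs of members. Genes beside them, and gene_3516, were named after their values were seen. Alternatives covered pseudocounts, the filter, scalings, medians, runs, the replicate block and each library left out.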

Additional observations from a re-analysis of the deposited data

How the results depend on the processing

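The number of genes chosen moved most with the pseudocount, while quantile normalization kept the fewest of the 189 members. The rule gave 378 genes with 0.1 FPKM added, 173 of them among the 189, and 254 with 0.5, 176 of them among the 189. Quantile normalization gave 138 genes (107 shared), and other scalings, group medians or other limits on runs gave 127 to 241. Leaving out 1 library gave 179 to 193 genes, 171 to 187 of them shared, and 147 members were chosen under every such omission. The median d and s of the members were 2.84 and 2.81 with 0.5 added, 3.28 and 3.2 with 0.1, and 2.21 and 2.18 under quantile normalization. The median s was 2.48 with a common total, 2.57 with median of ratios and 2.52 with group medians. Without 1 library, d was 2.50 to 2.59 and s 2.51 to 2.52. The share of members with d above s turned to 48.7% under quantile normalization and was 51.9% to 62.4% without 1 library. The share of direct neighbours at least 2-fold higher was 48.8% with 0.1 added (17.1% for all gene_ rows), 36.4% under quantile normalization (9.98%), 57.6% at a limit of 0.5 (23.5%) and 41.8% to 43.3% without 1 library.

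All 189 members were called higher in both knockouts in each alternative fit, including those without 1 library. That count follows from the choice of members and is no sign of stability. In the main fit 38.2% of all rows tested were called higher in the Swd3 and 37.8% in the Set1 knockout. Over all rows, leaving out 1 library gave 3353 to 3490 higher and 3673 to 4009 lower calls in the Swd3 knockout and 3265 to 3493 higher and 3759 to 4016 lower calls in the Set1 knockout. Between the knockouts the number of members called lower in Swd3 was 13 under quantile normalization and 4 to 9 without 1 library, and 8 to 17 were called higher. The rule bounds the difference between the knockouts in the members, so these counts partly describe the choice. Of all 9153 rows, 771 were called lower in Swd3 under quantile normalization. Over all rows these calls ranged, without 1 library, from 362 to 659 higher and 371 to 678 lower. The lowest counts came without Swd3 replicate 2 (362 and 371), Set1 replicate 2 (406 higher) and Set1 replicate 3 (386 and 372). The cause was not tested. Deviations from the group means correlated above 0.1 in 4 of 9 pairs of libraries that share a number, with a range from -0.132 to 0.295. The numbers were not taken as a pairing, and whether libraries of the same number share an effect was not tested. With the replicate block 712 rows were called higher and 657 lower in Swd3 than in Set1 (610 and 563 without it), with 12 and 8 members among them.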
